A study of Mus musculus with 8 samples.

Results

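The distal convoluted tubule (DCT) is the short nephron segment that follows the thick ascending limb, and the baseline state of this tubule in wild-type mice is described here through its 300 brightest genes. They were chosen from 4 wild-type arrays as follows. Each gene was read by its brightest probe set that the platform annotation pairs with exactly 1 gene symbol, all 18782 such genes were ordered by their mean log2 intensity over the 4 arrays, and the first 300 (1.6%) were kept. The levels of these genes are therefore a description of the choice itself, and no test was made on them.

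Male C57/Bl6 mice, 8 weeks old, were the source of the tubules. The animals were wild-type for TBC1D4 and carried a transgene in which the parvalbumin promoter drives EGFP, so the sort selected tubules in which that promoter is active. A COPAS instrument, which sorts particles as large as tubule fragments, collected the fluorescent ones, and 100 ng of RNA per sample was converted to labelled cDNA for a 1-colour Affymetrix array, 4 arrays in all. A second group of 4 TBC1D4-deficient samples with the same transgene, age and sex exists and was used here only to look up the same genes in arrays that played no part in the choice. Whether the samples are 4 different animals is not stated in the labels, and the SDs given here may therefore be partly technical.

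The DCT reabsorbs sodium chloride through the thiazide-sensitive cotransporter NCC in its apical membrane, driven by the sodium pump of its basolateral membrane. It also sets the final rate of magnesium reabsorption, through apical TRPM6 channels. Its later part reabsorbs calcium by way of an apical channel, cytosolic calcium-binding proteins and basolateral exchangers. Its cells are packed with mitochondria along the basolateral infoldings. Kinases of the WNK and SPAK families switch NCC on and off in response to potassium, aldosterone and angiotensin.

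Pearson correlations between the 4 arrays on the log2 scale were 0.994 to 0.996 over all probe sets and 0.955 to 0.978 over the 300 genes, and no 2 arrays held identical values. The brightest gene averaged 11.90 and the gene at rank 300 averaged 9.20, a span of 6.47-fold. A probe set's brightness depends on its probes as well as on its transcript, so the order is one of brightness and not of mRNA copies. Differences between the brightest probe sets may be compressed. Immediately inside the limit lay Tmed4 (9.21 ± 0.07), Pkp4 (9.20 ± 0.08) and Trpm7 (9.20 ± 0.15, SD, n = 4 for each), and immediately outside lay Ccnd1 (9.20 ± 0.08), Slc5a3 (9.19 ± 0.09) and Pgam1 (9.19 ± 0.15). These 6 genes overlapped in their array values, so the limit itself marks no break in the data.

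Olfactory (Olfr) and vomeronasal (Vmn) receptors, which serve the sense of smell, gave the background floor. Their 1157 genes had a median level of 1.57 and a 99th percentile of 3.21, an intensity of 9.25, which was taken as the floor. The brightest of them was Vmn2r29 at 4.49 ± 0.08 (SD, n = 4), which ranked 7859. Of 17625 other genes, 10087 (57.2%) lay above the floor. The gene at rank 300 lay 63.7-fold above it, so the 300 genes stood well clear of the background, as the choice by level brings with it.

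**Figure D1:**
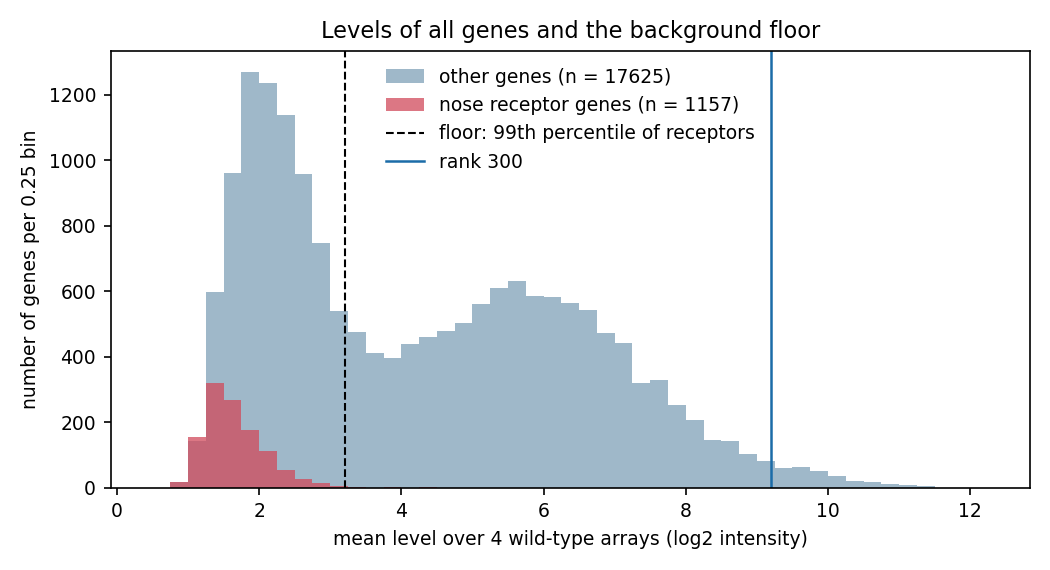
Histogram of the mean level (log2 intensity) of 17625 genes and of 1157 olfactory and vomeronasal receptor genes over 4 wild-type arrays, with the floor of 3.21 (dashed line) and the level at rank 300 of 9.20 (solid line). The receptors pile up around 1.57 and the 300 genes form the far right tail.

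The 4 markers fixed for the DCT were all among the 300. Of a wider list of 11 measured DCT markers, 6 were among the 300, against 1.6% of all genes. All 11 lay above the floor, where 57.2% of other genes did, and the dimmest stood at 5.94. Slc12a3, which encodes NCC, ranked 3 with 11.56, 11.45, 11.47 and 11.50 in wild-type replicates 1 to 4 (mean 11.49 ± 0.05, SD, n = 4). Calb1, the cytosolic calcium-binding protein calbindin-D28k, ranked 13 with 11.14, 11.13, 11.06 and 11.13. Pvalb, whose promoter marked the sorted tubules, ranked 173 with 9.70, 9.57, 9.74 and 9.73. These levels differed by little between arrays, and none of these genes left the first 300 in any array. Trpm6, the magnesium channel, ranked 267 with 9.30, 9.34, 9.25 and 9.21, and its worst rank in an array was 306.

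The sequences upstream of these markers show what lies before the start of the genes that define the segment, and Umod is added because it is the brightest marker of a neighbouring segment among the 300. Each line gives the 250 bases before the RefSeq start in mouse build GRCm38.p6, with matches to 6 short motifs in capitals; a window for Calb1 was not used here. The Slc12a3 window is chr8:94328958-94329207 (+), the Pvalb window (the more upstream of 2 starts) chr15:78206401-78206650 (-), the Trpm6 window chr19:18749480-18749729 (+) and the Umod window chr7:119479263-119479512 (-).
Slc12a3: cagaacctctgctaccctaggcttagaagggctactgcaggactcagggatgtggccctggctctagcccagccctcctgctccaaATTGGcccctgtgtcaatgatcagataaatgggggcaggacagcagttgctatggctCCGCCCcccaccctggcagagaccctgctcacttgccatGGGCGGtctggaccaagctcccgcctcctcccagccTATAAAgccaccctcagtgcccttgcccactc
Pvalb: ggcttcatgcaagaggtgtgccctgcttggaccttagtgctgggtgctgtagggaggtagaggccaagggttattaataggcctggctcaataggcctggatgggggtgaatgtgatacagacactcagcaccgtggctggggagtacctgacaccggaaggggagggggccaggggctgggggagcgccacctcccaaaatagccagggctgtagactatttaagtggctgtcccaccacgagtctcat
Trpm6: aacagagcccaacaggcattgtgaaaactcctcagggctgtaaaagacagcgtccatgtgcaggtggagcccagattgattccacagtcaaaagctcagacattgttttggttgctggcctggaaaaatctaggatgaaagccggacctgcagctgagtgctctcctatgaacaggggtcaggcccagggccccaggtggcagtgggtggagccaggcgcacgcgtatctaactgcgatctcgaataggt
Umod: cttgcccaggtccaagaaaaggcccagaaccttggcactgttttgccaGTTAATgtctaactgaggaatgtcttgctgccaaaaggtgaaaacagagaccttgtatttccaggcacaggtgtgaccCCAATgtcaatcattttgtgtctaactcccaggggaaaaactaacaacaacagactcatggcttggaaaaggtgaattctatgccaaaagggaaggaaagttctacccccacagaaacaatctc
In the Slc12a3 window a TATA box (TATAAA) began at position -32, GC boxes (GGGCGG, read on either strand) began at -107 and -68, and a CCAAT box on the reverse strand began at -164, counted back from the start. The Umod window held an HNF1 core (GTTAAT) at -202 and a CCAAT box at -124. The Pvalb and Trpm6 windows held none of the 6 motifs, which says only that these letters are not in these bases. A match is a string of letters and was not tested for binding.

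Windows were available for 238 of the 300 genes (299 windows, since some genes have several starts) and for 14724 of all genes (18125 windows), and both strands were searched. TATAAA was found in 6.35% of the windows of the 300 genes (95% Wilson interval 4.11 to 9.71) and in 10.7% of all windows. Its share was 9.57% (5.12 to 17.2) at ranks 1 to 100, close to that of all windows. At ranks 1 to 500 it was 5.22% (3.61 to 7.49). GGGCGG was found in 51.8% (46.2 to 57.4) against 45.9%, and TGACG, the core of the cyclic AMP response element, in 25.8% (21.1 to 31.0) against 21.5%. CCAAT stood at 37.5% against 34.7%, the ERR site AAGGTCA at 4.68% against 3.43%, and the HNF1 core at 6.35% against 5.63%, each within the interval of the 300 genes. Some motifs share letters with longer elements, windows of a gene with several starts are not independent, and these shares are descriptions without a test.

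Sodium chloride transport was represented by its carrier, a kinase and a phosphatase inhibitor. Wnk1, the WNK kinase whose short kidney form lacks the kinase domain and is abundant in the DCT, ranked 21 at 10.97 ± 0.03 (SD, n = 4). A dimmer probe set of Wnk1 averaged 9.32, 1.65 lower on the log2 scale. Such disagreement was common: 92 of the 300 genes had several probe sets, and in 47 of them these lay over 1 apart on the log2 scale. Ppp1r1a, an inhibitor of protein phosphatase 1, stood at 9.84, 10.00, 9.90 and 9.96 in replicates 1 to 4. These 3 were the list genes among the 300, of 15 measured, against 1.6% of all genes. All 15 lay above the floor, where 57.2% of other genes did. Stk39 (SPAK), a kinase that carries the WNK signal, stood further down at 8.98 ± 0.01, rank 372. Another WNK kinase, Wnk4, stood at 8.95 ± 0.03, rank 384. Cul3, a cullin that takes part in the degradation of WNK kinases, stood at 8.77 ± 0.05. Sgk1, a kinase induced by aldosterone, was the dimmest of the list at 3.82, 4.21, 3.49 and 3.46, close to the floor.

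The basolateral membrane contributed the sodium pump and a potassium channel. Atp1b1, the beta subunit of the sodium pump, ranked 11 with 11.18, 11.17, 11.21 and 11.19 in replicates 1 to 4, and its regulator Fxyd2 stood at 10.36, 10.36, 10.36 and 10.46. Kcnj16, which pairs with Kcnj10 in the basolateral potassium channel, stood at 9.98 ± 0.04, and Kcnj10 itself at 8.75 ± 0.16, rank 460. Bsnd, the subunit that brings chloride channels to the membrane, stood at 8.96 ± 0.08. Of 7 measured genes of this list, 3 were among the 300, against 1.6% of all genes. All 7 lay above the floor, where 57.2% of other genes did.

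Apical and other carriers among the 300 included several not specific to sodium chloride. Kcnj1, the ROMK potassium channel, stood at 10.60, 10.66, 10.57 and 10.60, and Scnn1a, the alpha subunit of the epithelial sodium channel, at 9.82, 10.06, 9.83 and 9.90. Slc16a7 (MCT2), a carrier of lactate and other monocarboxylates, stood at 10.76 ± 0.03, and Rhcg, an ammonia transporter, at 9.64 ± 0.07. Abca13, an ABC transporter, stood at 10.60 ± 0.08 and Mfsd4a at 9.55 ± 0.06. Atp4a, the catalytic subunit known from the gastric proton pump, stood at 9.69, 9.87, 9.64 and 9.34, lowest in replicate 4. The beta and gamma subunits of the epithelial sodium channel stood at 7.60 ± 0.09 (Scnn1b) and 7.38 ± 0.12 (Scnn1g), outside the 300.

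By the gene lists, calcium and magnesium genes formed the largest ion group, with 11 of 21 among the 300 and 20 of 21 above the floor. Of all genes 1.6% were in the 300, and of other genes 57.2% lay above the floor. By roles assigned by hand, 13 members had this role and 14 that of salt and solute transport. S100a1 and Sri, given below, have the role but are not in the list. Besides Calb1, the calcium-binding proteins were S100g (calbindin-D9k) at 10.65, 10.74, 10.63 and 10.84, S100a1 at 10.40 ± 0.07, and Sri (sorcin) at 9.28 ± 0.03. Slc8a1, the sodium-calcium exchanger that extrudes calcium at the basolateral side, stood at 9.86 ± 0.07. The vitamin D receptor Vdr, which induces calcium-binding proteins, stood at 9.84 ± 0.06. S100g was highest in replicate 4, as were 111 of the 300, and its SD of 0.10 was above the median of 0.06 over the 300. Trpv5, the apical calcium channel of the late DCT and connecting tubule, ranked 662 at 8.06, 8.52, 8.45 and 8.60, lowest in replicate 1.

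Magnesium handling was led by Egf, the precursor of epidermal growth factor, which acts on magnesium uptake in an autocrine manner. It ranked 25 at 10.85, 10.90, 10.85 and 11.00. Pcbd1, a cofactor of the HNF1 transcription factors that is linked to magnesium wasting, stood at 10.42 ± 0.03, and Cnnm2, a basolateral protein needed for magnesium balance, at 9.43 ± 0.06. A dimmer probe set of Cnnm2 averaged 5.11 ± 0.54, so its probe sets disagreed. Kl (klotho), the co-receptor for FGF23, was among the most even genes of all with 10.59, 10.57, 10.58 and 10.59. Trpm7, the relative of Trpm6 that forms channels with it, closed the list of 300 at 9.27, 9.33, 8.99 and 9.22. Its worst rank in an array was 382, in replicate 3, so its place among the 300 depended on the other arrays.

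**Figure D2:**
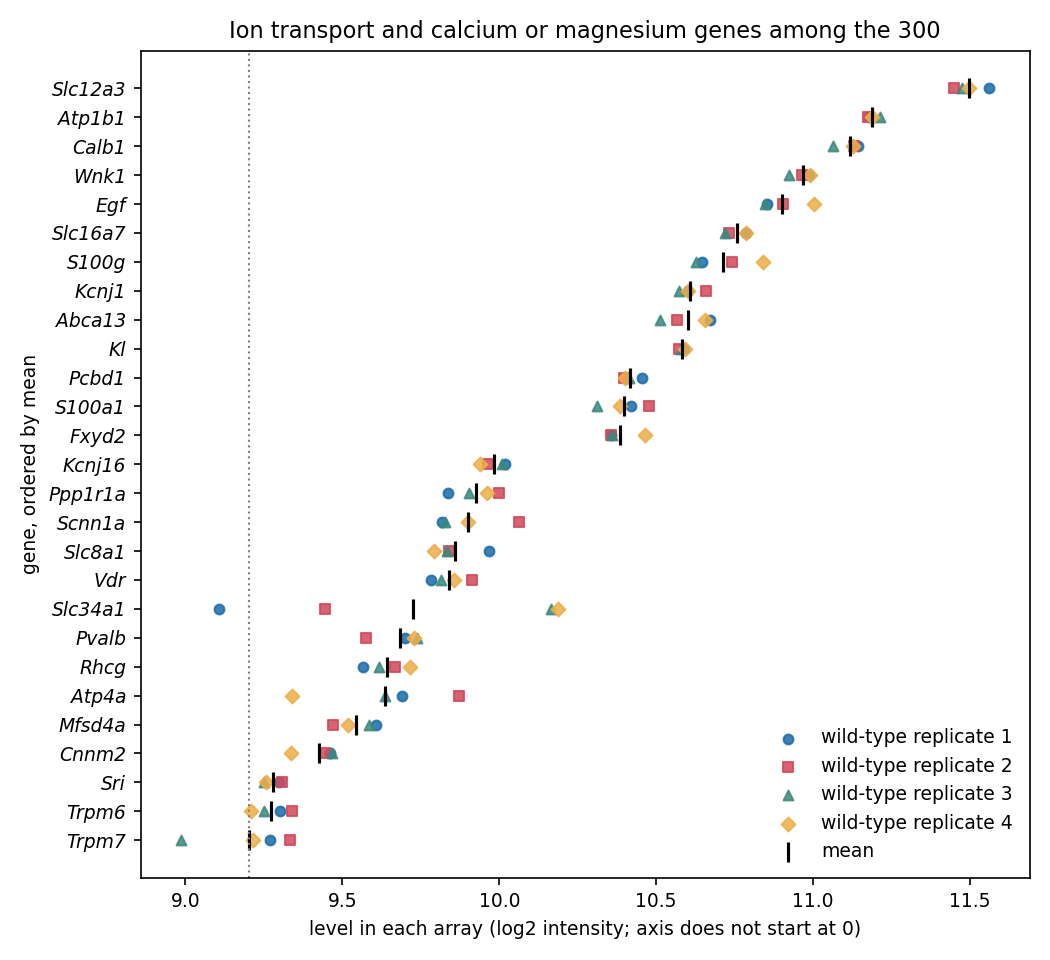
Level (log2 intensity) in each of 4 wild-type arrays of the genes of salt and solute transport and of calcium and magnesium handling among the 300, with the mean as a black bar and the level of rank 300 (9.20) as a dotted line. Most genes lie in a narrow band, from Slc12a3 at 11.49 to Trpm7 at 9.20, while Slc34a1 spreads from 9.11 to 10.19.

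Mitochondrial genes made up the largest functional block. By roles assigned by hand, 40 of the 300 belonged to the respiratory chain and ATP synthase and 38 to other mitochondrial metabolism and carriers, together 78 genes (26.0%). In the lists, 39 of 76 measured nuclear genes of oxidative phosphorylation were among the 300, against 1.6% of all genes. ATP synthase had the highest share, with 13 of 18. Its brightest members were Atp5b, the catalytic beta subunit, at 11.26 ± 0.03, Atp5d at 11.08 ± 0.02, Atp5g1, of the membrane ring, at 10.93 ± 0.03 and Atp5a1 at 10.49 ± 0.02. Complex IV with cytochrome c had 7 of 11, led by Cox6c (11.26 ± 0.01), Cox7b (10.87 ± 0.05), Cox8a (10.74 ± 0.01) and Cycs (10.28 ± 0.08).

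The other complexes were represented less fully, and beside their counts, 1.6% of all genes were in the 300. Complex III had 5 of 8, with Uqcrb (10.41 ± 0.10), Uqcrh (10.13 ± 0.06), Cyc1 (9.86 ± 0.06) and Uqcrc1 (9.78 ± 0.02) at the top. Complex II had 2 of 4, Sdha at 10.38 ± 0.04 and Sdhc at 9.24 ± 0.08. Complex I, the largest complex and the entry point for NADH, had 12 of 35, led by Ndufb4 (10.40 ± 0.06), Ndufc2 (10.25 ± 0.08), Ndufb11 (10.18 ± 0.02) and Ndufb9 (10.07 ± 0.03). All 76 genes lay above the floor, where 57.2% of other genes did. The 40 genes of the respiratory chain and ATP synthase had a median SD of 0.05, against 0.06 over the 300 and 0.11 over all genes. Of these 40, 21 ranked in the first 100, where the median SD was 0.04, so a small spread was not particular to them. Ndufs4 was the widest of the 40, at 9.25, 9.30, 9.61 and 9.61 in replicates 1 to 4.

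Carriers and enzymes that feed the chain followed, and beside the counts below, 1.6% of all genes were in the 300. Slc25a5, the ADP/ATP carrier of the inner membrane, ranked 4 at 11.35, 11.31, 11.34 and 11.39, and the phosphate carrier Slc25a3 stood at 10.62 ± 0.06. Of 15 genes for mitochondrial carriers and porins, 8 were among the 300, including the porin Vdac1 at 10.05 ± 0.03. That list also holds creatine kinases, of which Ckb, the cytosolic brain type, is 1 of the 8 at 10.18 ± 0.06. The citric acid cycle list had 10 of 20, with Got2 (10.64 ± 0.03), Idh2 (10.38 ± 0.03), Mdh2 (10.23 ± 0.08) and Ogdh (10.05 ± 0.02) in front. Fatty acid and ketone oxidation had 7 of 23. Hadh, of beta oxidation, stood at 10.53 ± 0.05, Oxct1, which activates ketone bodies, at 10.15 ± 0.03, Acat1 at 9.95 ± 0.05 and Cpt1a, which admits fatty acids to the mitochondrion, at 9.87 ± 0.08. Efhd1, a mitochondrial calcium-binding protein, stood at 10.52 ± 0.07, Acss1, which activates acetate, at 10.16 ± 0.06 and Mpc1, of the pyruvate carrier, at 9.99 ± 0.11.

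Glycolysis was present as well, with 7 of 13 list genes among the 300, against 1.6% of all genes. Gapdh stood at 11.35 ± 0.04, Aldoa at 10.66 ± 0.06, Ldhb, the lactate dehydrogenase form of oxidative tissues, at 10.55 ± 0.03 and Pkm at 10.04 ± 0.10. Gapdh was read by 17 probe sets of 1 symbol and many near-identical copies, and Gm12070 (10.99 ± 0.02), which shares probe sets with Gapdh in the annotation, cannot be told apart from it with certainty. Other metabolic enzymes among the 300 were Nudt4, a phosphatase of inositol pyrophosphates, at 10.70 ± 0.03, Scd2, a fatty acid desaturase, at 10.67, 10.43, 10.61 and 10.33, and Paics, of purine synthesis, at 10.41 ± 0.05. Prps2, which makes the precursor of nucleotides, was among the 5 most even members at 9.55, 9.56, 9.55 and 9.56.

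Among glucose and insulin genes, 0 of 12 were in the 300, where the share of all genes was 1.6%, and all 12 lay above the floor, where 57.2% of other genes did. With 12 genes, the count of 0 is near that background. Slc2a1 (GLUT1) came closest at 9.17 ± 0.11, rank 305. Slc2a4 (GLUT4) stood at 7.71 ± 0.11, Insr at 7.17 ± 0.13, Tbc1d1 at 6.81 ± 0.09 and Tbc1d4, the gene targeted in the other group of the study, at 6.75 ± 0.15 (SD, n = 4 for each), all outside the first 1000.

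**Figure D3:**
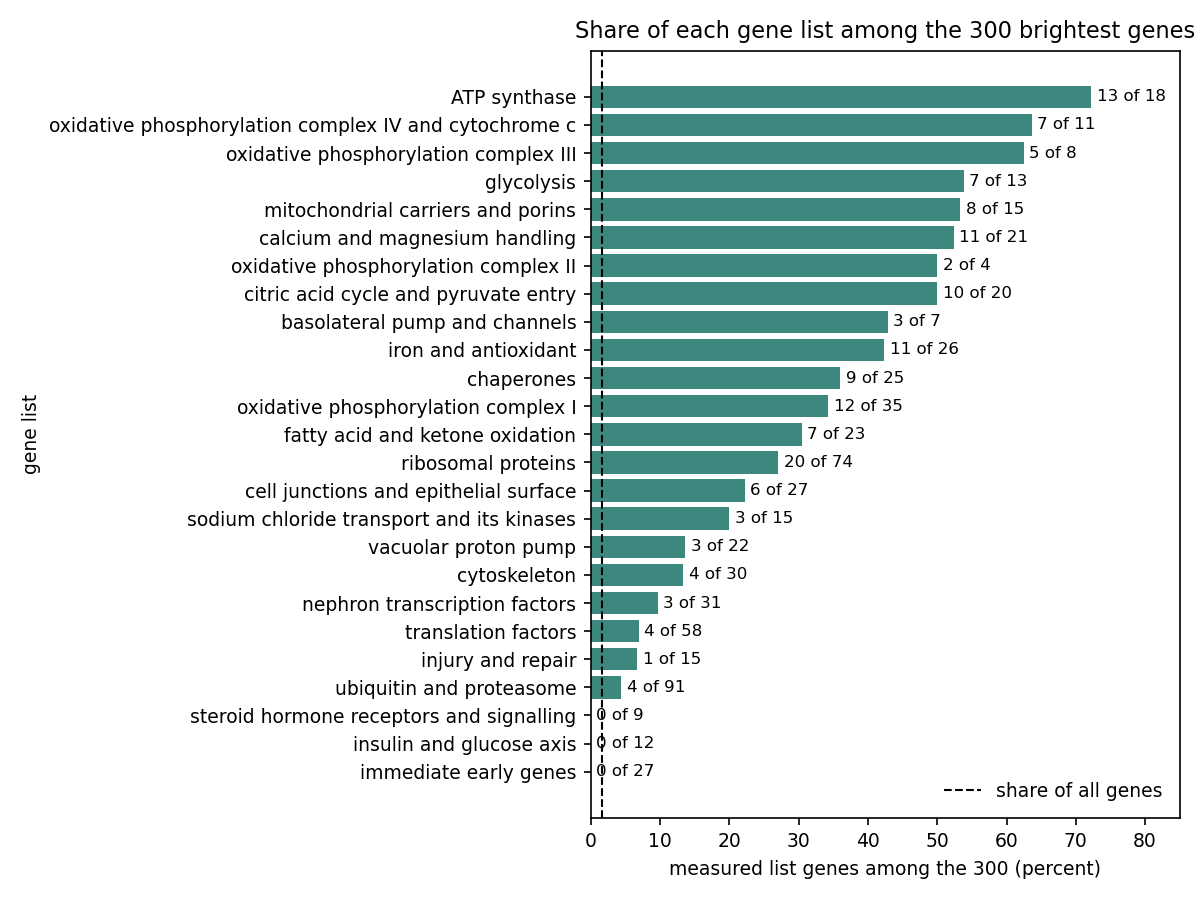
Share of the measured genes of each list that were among the 300 brightest genes (bars, percent), with the counts at the bar ends and the share of all genes, 1.6%, as a dashed line. ATP synthase stands at 13 of 18, ribosomal proteins at 20 of 74 and the immediate early genes at 0 of 27.

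Secreted proteins contributed 17 members, 8 of them in the first 100. Igfbp7, which binds insulin-like growth factors, ranked 9 at 11.21 ± 0.04, and Defb1, the antimicrobial peptide beta-defensin 1, ranked 14 at 11.10 ± 0.04. Sfrp1 and Sostdc1 are secreted modulators of Wnt signalling; Sfrp1 stood at 11.05 ± 0.03, and Sostdc1 at 10.09, 9.89, 10.13 and 10.21. Kng2, a kininogen, stood at 10.79 ± 0.05, Tcn2, the vitamin B12 carrier transcobalamin, at 10.34 ± 0.08 and Clu (clusterin), the 1 gene of 15 in the injury and repair list that was among the 300, at 9.89 ± 0.07. With 15 genes and 1.6% of all genes in the 300, a count of 1 is near the background. Umod, uromodulin, ranked 12 at 11.06, 11.16, 11.02 and 11.32.

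Ribosomes and translation supplied 27 members. Of 74 ribosomal protein genes, 20 were among the 300, led by Rps6 (10.98 ± 0.01), Rpl21 (10.74 ± 0.02), Rpl41 (10.48 ± 0.10) and Rps2 (10.34 ± 0.09). These genes have many processed copies, and Rpl21 alone was read by 41 probe sets of 1 symbol, so the level of each is uncertain. Of 58 translation factors, 4 were among the 300: Eef1a1 (10.79 ± 0.02), Tpt1 (10.43 ± 0.11), Eef2 (10.28 ± 0.03) and Eif4g2 (9.31 ± 0.05). Ribosomal proteins thus stood at 27.0% and translation factors at 6.90%, against 1.6% of all genes. The 27 members had a median SD of 0.09. Rpl28 was lowest in replicate 1, at 10.12 against 10.30 to 10.37 in the others, and Rpl29 likewise, at 9.93 against 10.06 to 10.14.

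The cell's structure and surface supplied 26 members. Actb ranked 15 at 11.09 ± 0.05 and Actg1 stood at 10.58 ± 0.10, with Myl6 (9.72 ± 0.05) and Dstn (9.42 ± 0.06) the other list genes of the cytoskeleton. At the surface stood the tetraspanin Cd81 (10.69 ± 0.02), the tight junction protein Cldn8 (10.22 ± 0.12), the kidney cadherin Cdh16 (10.08 ± 0.02) and E-cadherin, Cdh1 (9.43 ± 0.03). Cldn8 was highest in replicate 4, at 10.39 against 10.11 to 10.21 elsewhere.

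Quality control and degradation were led by autophagy genes. Gabarapl1, of the ATG8 family that coats autophagosomes, ranked 18 at 11.00 ± 0.05, and its relatives Gabarap and Gabarapl2 stood at 9.98 ± 0.03 and 9.49 ± 0.04. Tmem52b, whose role was not assigned here, ranked 6 at 11.36, 11.28, 11.29 and 11.29. The proton pump of lysosomes had 3 of 22 genes among the 300, Atp6ap1 (9.82 ± 0.04), Atp6v1a (9.67 ± 0.07) and Atp6v0e (9.52 ± 0.04). Of 91 genes for ubiquitin conjugation and the proteasome, 4 were: Ube2d3 (10.16 ± 0.05), Sumo2 (9.96 ± 0.02), Psmb3 (9.63 ± 0.06) and Psmb5 (9.48 ± 0.07). The proton pump list thus stood at 13.6% and the ubiquitin and proteasome list at 4.40%, against 1.6% of all genes.

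Of 25 chaperones, 9 were among the 300, against 1.6% of all genes. Hspa8, the constitutive HSP70 of the cytosol, stood at 10.71, 10.72, 10.77 and 10.59, Canx (calnexin) at 10.23 ± 0.05, Ppia at 9.96 ± 0.04 and Calr at 9.70 ± 0.11. Hspa5 (BiP), the HSP70 of the endoplasmic reticulum, was lower in replicate 4 than elsewhere, at 9.41, 9.61, 9.53 and 8.98. Hsp90aa1, the inducible HSP90, was lowest in the same array, at 9.79, 9.61, 9.62 and 9.22. Calr and Hsp90b1, folding proteins of the same compartment as Hspa5, were not lowest there, with 9.79 and 9.54 in replicate 4.

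Iron and antioxidant genes had 11 of 26 among the 300, against 1.6% of all genes. Fth1, the ferritin heavy chain, ranked 10 at 11.19 ± 0.04, and the metallothioneins Mt2 and Mt1 stood at 10.95 ± 0.11 and 9.78 ± 0.03. Txn1 (thioredoxin) stood at 9.93 ± 0.10. Txnip, the thioredoxin-binding protein that responds to glucose, was highest in replicate 4, at 9.82, 9.53, 9.63 and 10.20. Glutathione peroxidases were uneven: Gpx1 was at 9.20, 9.36, 9.65 and 9.43, Gpx3 at 9.63, 10.07, 10.60 and 10.54, and Gpx6 at 9.33, 9.40, 9.53 and 10.05.

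Of 31 nephron transcription factors, 3 (9.68%) were among the 300, against 1.6% of all genes, and 28 lay above the floor, which 57.2% of other genes passed. Hoxd8, a homeobox factor, stood at 9.65 ± 0.04, Tfcp2l1, a factor of the distal nephron and collecting duct, at 9.51, 9.83, 9.63 and 9.63, and Ppargc1a (PGC-1alpha), the coactivator of mitochondrial biogenesis, at 9.43, 9.61, 9.32 and 9.26. Tfap2b and Lhx1 followed at 8.74 ± 0.07 and 8.44 ± 0.17. Among steroid hormone receptors and their enzymes, 0 of 9 were among the 300 and 7 lay above the floor, against the same shares, and with 9 genes a count of 0 in the 300 is near the background. The 5 brightest were Hsd11b2, which shields the mineralocorticoid receptor from glucocorticoids, at 6.70, 6.13, 6.72 and 6.55, the mineralocorticoid receptor Nr3c2 at 6.49, 6.47, 6.13 and 6.54, Fkbp5 at 6.20 ± 0.24, the glucocorticoid receptor Nr3c1 at 5.76 ± 0.20 and Per1 at 5.51 ± 0.60.

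Non-coding and predicted genes made up 8 of the 300, and Rn28s1, the 28S ribosomal RNA, led the whole list at 12.01, 11.87, 11.91 and 11.79. Rn7sk, the 7SK RNA, ranked 2 and was nearly constant at 11.53, 11.52, 11.54 and 11.52. Malat1, a long nuclear RNA, was uneven, at 10.21, 9.83, 9.59 and 9.43, highest in replicate 1 and lowest in replicate 4. Rny3, a Y RNA, was lowest in replicate 1 and highest in replicate 4, at 9.72, 9.93, 10.04 and 10.27.

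Markers of other cell types were sorted into those at the background and those well above it. Of other genes, 57.2% lay above the floor. Leukocyte markers were mostly at the floor, with 2 of 19 above it, Csf1r (4.66 ± 0.28) and C1qa (3.22 ± 0.12), and the pan-leukocyte marker Ptprc at 2.33 ± 0.04. Podocyte markers had 2 of 7 above it, Podxl (4.71 ± 0.10) and Clic3 (3.34 ± 0.22), with the slit diaphragm gene Nphs1 at 2.71 ± 0.14. Stromal and smooth muscle markers had 4 of 13, led by Acta2 (4.37 ± 0.28) and Fbln5 (3.89 ± 0.12), and endothelial markers 11 of 15, led by Emcn (5.50 ± 0.14) and Ehd3 (4.94 ± 0.26). No marker of these 4 lists came near the 300. With lists this small and 1.6% of all genes in the 300, a count of 0 is near the background. Of the red blood cell list only Slc4a1 (6.52 ± 0.70), which intercalated cells also express, and Alas2 (2.39 ± 0.15) were measured.

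Neighbouring tubule segments were more visible. Beside the counts below, 57.2% of other genes lay above the floor and 1.6% of all genes were in the 300. Of 11 thick ascending limb markers, 10 lay above the floor and 4 were among the 300: Umod, Kcnj1, Ppp1r1a and Tmem72 (9.71 ± 0.06), the first 3 of which the DCT is also known to express. Slc12a1 (NKCC2), the cotransporter that defines the thick ascending limb, stood at 7.65, 7.50, 7.73 and 7.27, rank 1491. Of 12 connecting tubule and principal cell markers, 10 lay above the floor, and S100g and Slc8a1, which the late DCT shares, were among the 300. The water channel Aqp2, which defines principal cells, stood at 5.20, 4.50, 5.63 and 5.07. All 14 intercalated cell markers lay above the floor, but only Rhcg was among the 300, and Slc4a1 and Slc26a4, the exchangers of the A and B types, stood at 6.52 ± 0.70 and 4.93 ± 0.05. In bulk samples, few cells of a type with much RNA and many cells with little cannot be told apart.

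Proximal tubule markers had the widest range of array means of the 35 lists measured. All 22 measured markers lay above the floor, where 57.2% of other genes did, and 2 were members, against 1.6% of all genes. Slc34a1, the sodium phosphate cotransporter of the proximal tubule, stood at 9.11, 9.44, 10.16 and 10.19 in replicates 1 to 4. Kap, the kidney androgen-regulated protein, stood at 8.99, 9.23, 9.72 and 9.93. Both were lower in replicates 1 and 2 than in replicates 3 and 4. The highest array exceeded the lowest 2.11-fold for Slc34a1 and 1.92-fold for Kap, and in replicate 1 alone 0 of the 22 markers were among the 300 brightest genes. Averaged over the 22 markers, each centred on its own mean, the arrays stood at -0.72, -0.40, 0.54 and 0.58. Over the 11 DCT markers the same measure ran from -0.05 to 0.04. Intercalated cell markers stood at 0.15, -0.21, 0.21 and -0.15, and connecting tubule and principal cell markers at 0.04, -0.16, 0.18 and -0.05, so these lists also varied, in another order of arrays.

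The spread between arrays was small for most members. The median SD of the 300 was 0.06, and 235 of them had an SD under 0.1. It was 0.04 at ranks 1 to 100, 0.07 at 101 to 200 and 0.08 at 201 to 300, against 0.07 at 301 to 1000, 0.09 at 1001 to 3000 and 0.12 at 3001 to 10000. The lower members were therefore about as even as the genes that followed them. The smallest SDs belonged to Prps2, Kl, Cox8a, Rn7sk and Cox6c, each 0.01. In 267 of the 300 the gene was among the first 300 of every array, and the other 33 fell outside in at least 1 array. Replicates 1 to 4 held the highest value of 58, 62, 69 and 111 members and the lowest of 97, 80, 61 and 62. A member highest in replicate 4 or lowest in replicate 1 is therefore no exception among the 300.

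Only 13 members had an SD over 0.2, and only Slc34a1 ranged over more than 2-fold. In order they were Slc34a1 (0.54), Gpx3 (0.45), Kap (0.43), Nnt (0.40), Malat1 (0.34), Gpx6 (0.33), Txnip (0.30), Hspa5 (0.28), Lpl (0.25), Hsp90aa1 (0.24), Tmbim6 (0.23), Rny3 (0.23) and Atp4a (0.22). Gpx3, a secreted glutathione peroxidase made mainly in the proximal tubule, followed the order of the proximal tubule markers in having replicates 1 and 2 below replicates 3 and 4, as did Tmbim6 at 9.63, 9.57, 10.04 and 9.97. Gpx6 and Rny3 were also lower in those replicates. The part of proximal tubule RNA in these values was not tested. Lpl (lipoprotein lipase), at 9.07, 9.53, 9.20 and 9.57, and Nnt, at 9.84, 8.93, 9.53 and 9.71, had other patterns. Nnt encodes the mitochondrial transhydrogenase that makes NADPH, and its value in replicate 2 lay 0.60 below the next lowest.

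**Figure D4:**
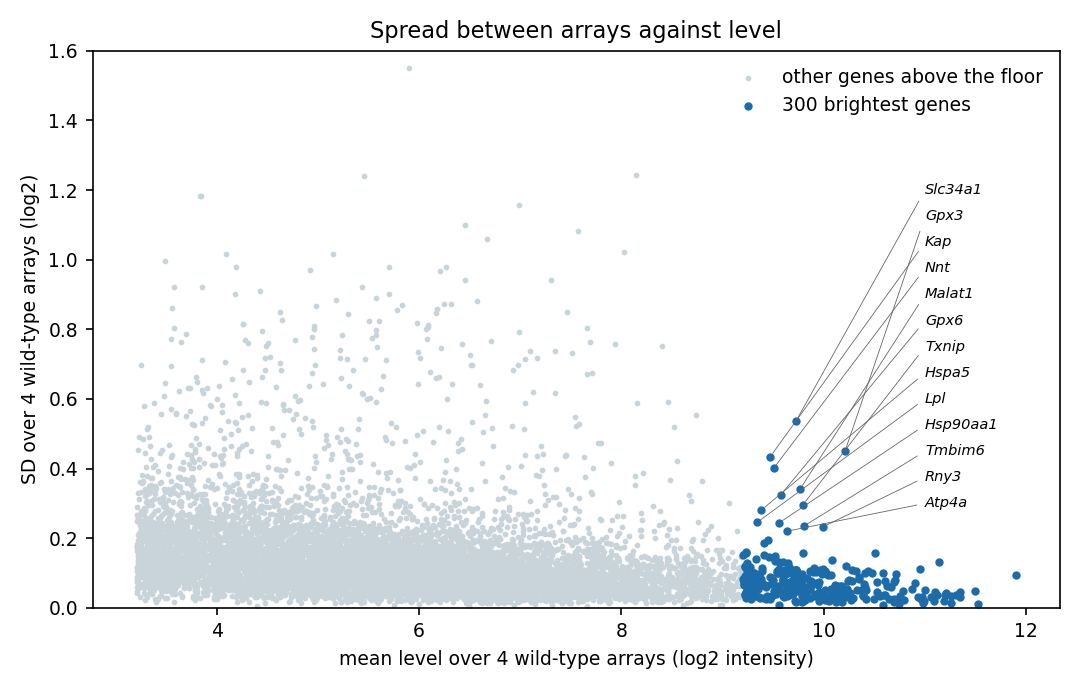
SD over 4 wild-type arrays (log2) against mean level (log2 intensity) for the 300 genes (dark points) and for the other genes above the floor (pale points), with the 13 members of SD over 0.2 named. The 300 lie low, with a median SD of 0.06, and Slc34a1 stands highest at 0.54.

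Immediate early genes, which respond within minutes to handling and stimulation, also differed between arrays, though none was among the 300. Of 27 measured, 21 lay above the floor, where 57.2% of other genes did. With 1.6% of all genes in the 300, a count of 0 of 27 there is near the background. Dusp1 was the brightest at 9.39, 8.87, 8.05 and 8.65. The mean of the list, centred by gene, stood at 0.64, 0.21, -0.47 and -0.38 in replicates 1 to 4, with 20 of 27 genes highest in replicate 1. Replicates 1 and 2 were thus higher for these genes and lower for the proximal tubule markers than replicates 3 and 4. Malat1 was highest in the array with the highest immediate early level, and whether the 2 are linked was not tested. The lists of ATP synthase and of ribosomal proteins stayed within -0.03 to 0.04 and -0.04 to 0.07.

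**Figure D5:**
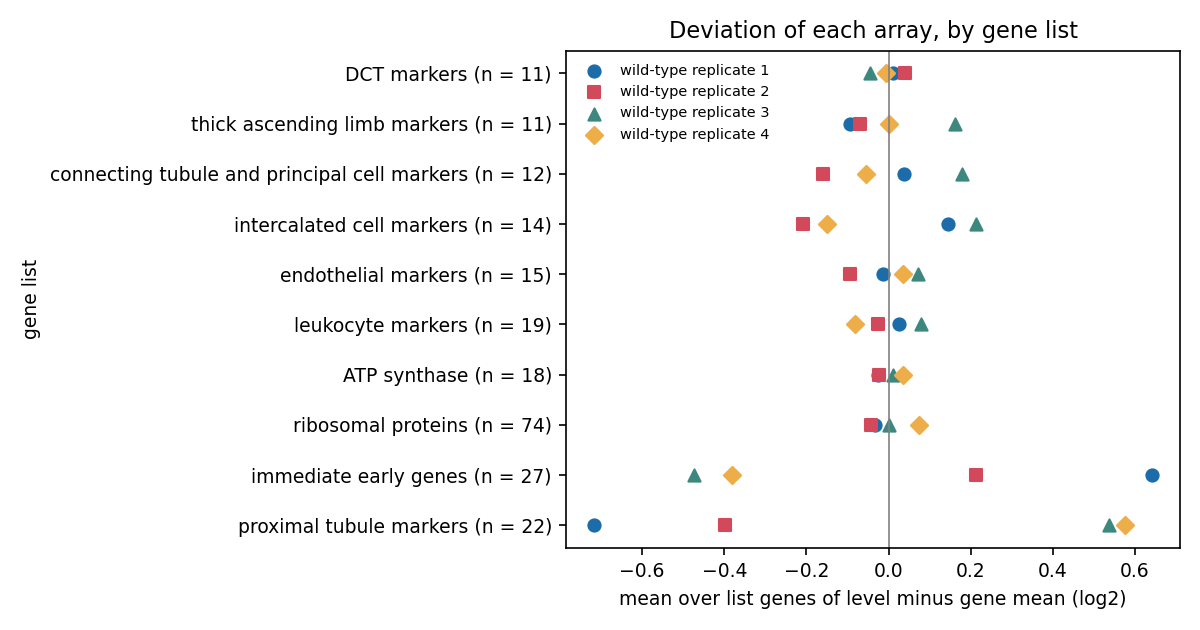
Mean deviation of each of 4 wild-type arrays from the gene means (log2), averaged over the measured genes of 10 lists, with n the number of genes. DCT markers lie between -0.05 and 0.04, while proximal tubule markers run from -0.72 to 0.58 and immediate early genes from -0.47 to 0.64.

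In the 4 TBC1D4-deficient arrays, which had no part in the choice, 293 of the 300 genes were again among the first 300. The 7 others were Timp3, Abhd6, Cat, Retsat, Mlf2, Rps10 and Tmed4, and the lowest rank of any member there was 331. The mean levels of the markers in those arrays were 11.49 for Slc12a3, 11.06 for Calb1, 9.75 for Pvalb and 9.33 for Trpm6. No comparison between genotypes was made.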

How the data were processed

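Probe set intensities were deposited by the authors on a linear scale, 1 column per sample and 28371 probe sets. The submitters' processing notes name Affymetrix Power Tools. No version, summarisation or normalization is stated in the sources used here. The columns had nearly equal medians (8.60 to 9.03 in wild-type arrays), and whether they were normalized between arrays is not known; such a step would hide a shift shared by most genes. The table holds no detection call. The number of arrays (4) limits the precision.

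From these values log2 was taken with no pseudocount and no further normalization. Of the probe sets, 21158 had 1 symbol, 1881 several and 5332 none; gene identifiers of all 300 members matched RefSeq (GRCm38.p6), which changed 0 symbols. Per gene the brightest probe set was used. Named were the 4 DCT markers, the 20 brightest named genes, up to 4 list members, markers of other cell types, the 10 widest and 5 most even members and 3 genes on each side of rank 300; others were picked after their values were seen. Members and the 36 lists were chosen with earlier results of these data known, and roles were assigned by hand afterwards. No groups were compared and no p-value was computed; arrays far from the others were marked with Dixon's criterion. The ranking script was tested on simulated data. Python 3.11.15, pandas 2.3.3 and scipy 1.17.1 were used. Alternatives were other summaries, probe set rules, normalizations, floors and list sizes, and leaving out each array.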

Additional observations from a re-analysis of the deposited data

Results flagged for a closer look

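Among 125 named genes and 35 lists, 5 genes and 3 lists had 1 of the 4 wild-type arrays far from the other 3, where the gap to the nearest array took up more of the whole range than Dixon's 95% critical value allows. Chance alone marks about 1 in 20 such groups, and the 8 marked of 160 are that share, so none is set apart from chance by this count. Fxyd2, the regulator of the sodium pump, stood at 10.46 in replicate 4 against 10.36 in each of the others (gap over range 0.969). Nr3c2, the mineralocorticoid receptor, stood at 6.13 in replicate 3 against 6.47 to 6.54 (0.830). Tmem52b stood at 11.36 in replicate 1 against 11.28 to 11.29 (0.866), and Vdac1 at 10.01 in replicate 2 against 10.06 to 10.07 (0.866). Psmb5, a proteasome subunit, stood at 9.58 in replicate 3 against 9.44 to 9.46 (0.852). The list means, centred by gene, were highest in replicate 3 for glycolysis at 0.09 against -0.03 to -0.02 (0.913), for the cytoskeleton at 0.11 against -0.05 to -0.03 (0.870) and for stromal and smooth muscle markers at 0.08 against -0.03 to -0.02 (0.874). Apart from Nr3c2, these gaps are small on the log2 scale.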

How the results depend on the processing

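The 300 genes were nearly the same under most settings: 298 were kept with the median of the arrays, all 300 with linear means, quantile normalization or centring on the median, and 295 to 298 without 1 array. Averaging a gene's probe sets kept 262 and keeping probe sets of several symbols kept 276. The count found again in the deficient arrays was 289 to 293 without 1 of them. For the floor from olfactory and vomeronasal receptors, genes above it numbered 12326 with the 95th percentile, 7858 with the brightest receptor, 9703 when each array had to pass, 10052 and 11194 with olfactory or vomeronasal receptors alone, and 10017 to 10193 without 1 array. The median SD of the members, 0.063, was 0.072 with centring on the median and 0.053 to 0.060 without 1 array; the range over arrays, another measure, had a median of 0.140. Leaving out proximal tubule markers or non-coding RNAs, chosen after seeing the data, gave 0.062 each. List genes numbered 158 of the 300, 149 with averaged probe sets, and 68 of the first 100. Levels of 31 of 125 named genes moved by over 1 SD when probe sets were averaged, and 0 did under the normalizations or without 1 array. For every motif, the shares at ranks 1 to 100 and 1 to 500 lay within the interval of the 300 genes. Protein lengths were not run. No paired analysis was possible because no groups were compared. With 4 arrays, an SD is itself imprecise, and near the floor a level cannot be told from background.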

Other observations

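The gene lists leave out bright probe sets that could not be named. A further 141 probe sets without exactly 1 symbol were at least as bright as rank 300, 61 with several symbols and 80 with none, and the brightest averaged 11.99. Of these, 24 list Gapdh among their symbols and 8 a ribosomal protein. No gene of mitochondrial DNA had a probe set of 1 symbol here.

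Nnt, the mitochondrial transhydrogenase, differed between arrays of both genotypes. It stood at 9.70, 9.57, 9.12 and 9.02 in TBC1D4-deficient replicates 1 to 4, beside 9.84, 8.93, 9.53 and 9.71 in the wild-type replicates. The 3 lowest values were thus those of wild-type replicate 2 and TBC1D4-deficient replicates 3 and 4. Each sample description carries a short and a long number, both of unstated meaning. The long numbers of these 3 arrays are consecutive, and TBC1D4-deficient replicate 1, at 9.70, carries the nearest other long number. Their short numbers are not consecutive, and wild-type replicate 3, at 9.53, carries a short number that lies between them. Whether either numbering is linked to the level of Nnt was not tested. A dimmer probe set of Nnt averaged 4.36 ± 0.24 in the wild-type arrays (SD, n = 4) and was highest, at 4.59, in the array with the lowest value of the brighter probe set.

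Slc34a1, the brightest proximal tubule marker, is a member through replicates 2, 3 and 4, and in replicate 1 it ranked 314. Kap ranked 361 there.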
